A study of Mus musculus with 6 samples.

Results

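Genes of sterol and fatty acid synthesis that are known targets of the SREBP transcription factors, together with the genes that control SREBP, were followed in an immortalised line of mouse bone marrow-derived macrophages. They were chosen, with earlier results of these data known, as a list of 32 gene symbols. Of these, 18 were of the sterol branch, 8 of the fatty acid branch and 6 regulators or carriers of sterol. All 32 were found among the 54532 gene identifiers of the series. The 6 libraries comprised 3 from cells with a short hairpin RNA (shRNA) against PGAM5, a mitochondrial protein phosphatase, and 3 from cells with an shRNA against DRP1, the GTPase that divides mitochondria. All cells had been given interleukin-4 (IL-4) at 10 ng/ml for 24 h. No library with a non-targeting shRNA and none without IL-4 was analysed here, so every difference below is between the 2 knockdowns and cannot be assigned to either of them, nor to IL-4. The titles number the libraries of each knockdown 1 to 3 without saying whether they differ in culture or in hairpin, and a p-value here covers the spread among these 6 libraries alone, which may be technical. In bulk RNA, fewer cells of a type and less RNA per cell cannot be told apart.

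As background, SREBP proteins are made as inactive precursors in the membrane of the endoplasmic reticulum. When sterols run low, the escort protein SCAP carries them to the Golgi, where proteases release the part that enters the nucleus and switches on genes of lipid synthesis. When sterols are plentiful, INSIG proteins hold SCAP back. SREBP2, from Srebf2, acts mainly on cholesterol genes, and SREBP1, from Srebf1, mainly on fatty acid genes, which in macrophages supply membrane and the lipids that shape inflammatory signalling.

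Levels are FPKM, fragments per kilobase of exon scaled to the library's total. Between genes they compare only roughly, since copies and overlapping genes make some levels uncertain, as given below. Differences are on the log2(FPKM + 1) scale, positive where the PGAM5 knockdown was higher, each with its standard error (SE). They were tested with limma over all 10634 genes whose mean was at least 1 FPKM, and a gene was called at an adjusted p under 0.05. Of all genes tested, 25.4% were called, 13.8% higher and 11.7% lower in the PGAM5 knockdown, with a median difference of 0.0094. Recovered depths ran from 16111280 to 21933548 reads per library. PGAM5 knockdown library 3 stood apart, with a chi-square per gene of 8.16 and 5.78 against the other libraries of its group, while the other pairs within groups gave 2.65 to 3.25. Each targeted gene was lower in its own knockdown than in the other. Pgam5 measured 4.91 ± 0.31 against 17.2 ± 0.14 FPKM, and Dnm1l, the gene of DRP1, 17.9 ± 0.75 against 7.57 ± 0.55 (SD, n = 3 libraries each). Without a non-targeting library the reduction of neither target could be sized. All 8 macrophage markers on the list were present. Of these, 4 were lower with PGAM5 knocked down (Cd68, Csf1r, Lyz2 and Fcgr1, limma adjusted p = 3.9e-05 to 0.0053), while Ptprc, Adgre1, Itgam and Spi1 did not pass, with Adgre1 at 43.9 ± 0.58 against 43.4 ± 0.91 FPKM and Spi1 at 193 ± 2.7 against 191 ± 0.39. Their summed level, most of it from Lyz2, was 2149 to 2261 FPKM with PGAM5 knocked down and 3128 to 3141 in the DRP1 knockdown. The part of that difference in the results below was not tested. The 5 adipocyte markers summed to at most 0.24 FPKM in any library, with Lep and Cidec at 0, and the 5 hepatocyte markers to at most 0.071, with Apoa1, Ttr and Tat at 0, so defining genes of other lipid-making cell types were at or near 0.

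The summed level of the sterol branch was nearly the same in both knockdowns. In the fatty acid branch Scd2, Fads1 and Fads2 were higher in the PGAM5 knockdown. These 3 are desaturase genes, as is Scd1, which did not pass, and this grouping within the branch was not set beforehand. Of 30 members tested, 6 rose, 1 fell and 23 did not pass. By branch, 2 rose and 1 fell of 16 tested in the sterol branch (Msmo1, Idi1 and Hsd17b7), 3 rose and 0 fell of 8 in the fatty acid branch (Scd2, Fads2 and Fads1), and 1 rose and 0 fell of 6 among the regulators (Srebf2). The median differences were 0.011, -0.019 and 0.059, beside 0.0094 for all genes tested. The called share of all members tested, 23.3%, was near the 25.4% of all genes. By branch it was 18.8% for sterol, 37.5% for fatty acid and 16.7% for regulator genes. Fdps and Tm7sf2 of the sterol branch lay below the expression filter and were not tested.

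**Figure D1:**
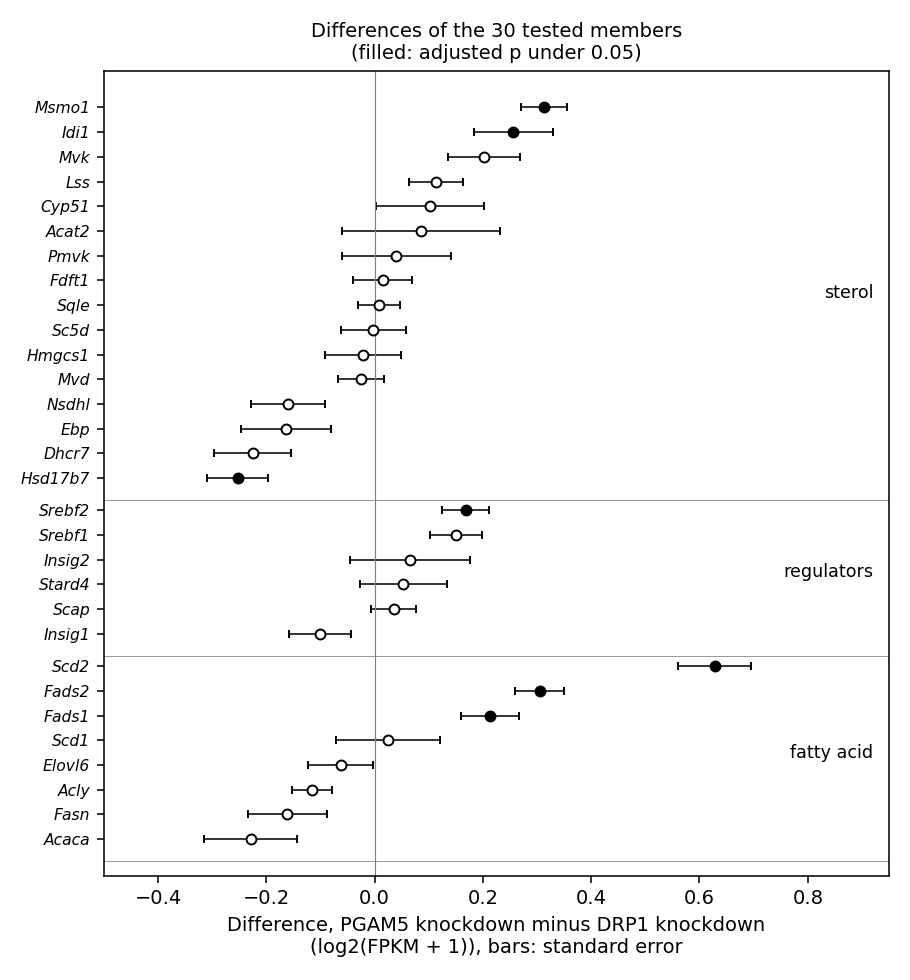
Differences between PGAM5 and DRP1 knockdown for the 30 tested members, by branch, on the log2(FPKM + 1) scale (x axis), with bars for the SE and filled points for an adjusted p under 0.05. Scd2 lies farthest out at 0.63, and the sterol genes spread to both sides of 0, from -0.25 for Hsd17b7 to 0.31 for Msmo1.

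**Figure D2:**
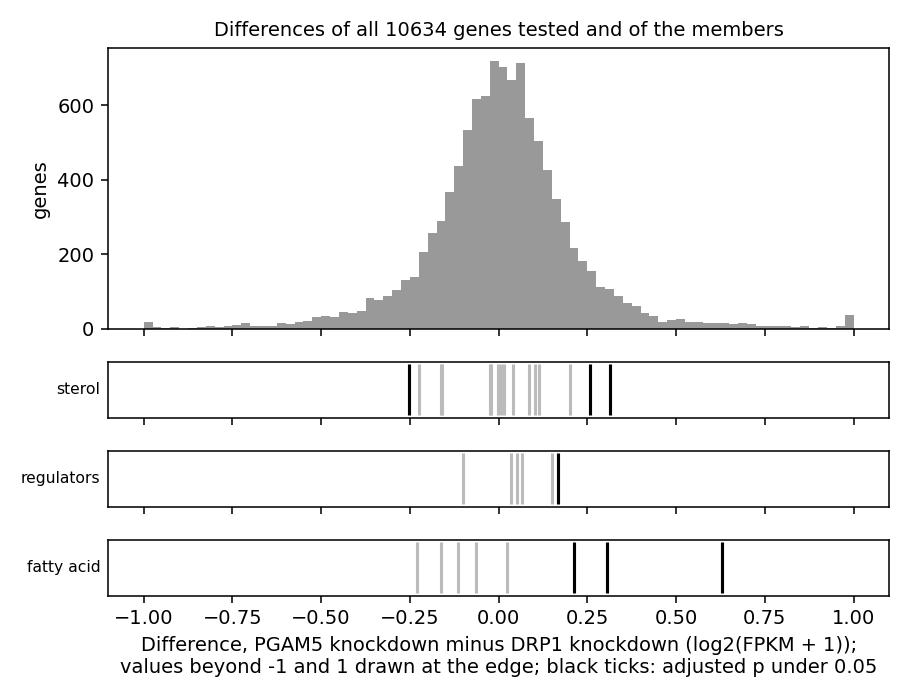
Histogram of the differences of all 10634 genes tested (y axis, number of genes) with the members of each branch as ticks below, black where the adjusted p was under 0.05. The sterol and regulator ticks lie between -0.25 (Hsd17b7) and 0.31 (Msmo1), and Scd2, at 0.63, lies in the right tail of the histogram.

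Among the genes that set SREBP activity, Srebf2 rose slightly and the others did not pass. Srebf2 (ENSMUSG00000022463, chromosome 15, 82147181 to 82205379, plus strand, mm10) measured 20.4, 20.8 and 19.1 FPKM with PGAM5 knocked down and 18.4, 17.5 and 17.4 in the DRP1 knockdown. The groups did not overlap, and the mean was 1.13-fold higher (log2 difference 0.17, SE 0.044, limma adjusted p = 0.029). The call was lost without PGAM5 knockdown library 1 or 2, without DRP1 knockdown library 2 or 3, and without the expression filter, with limma adjusted p between 0.011 and 0.099 over 12 alternatives. Srebf1 (ENSMUSG00000020538, chromosome 11, 60199089 to 60222581, minus strand) measured 11.8, 11.7 and 11.3 FPKM against 9.89, 10.2 and 11.04, also with no overlap, and did not pass (0.15, SE 0.048, limma adjusted p = 0.057). It passed without DRP1 knockdown library 3, its highest in that group (limma adjusted p = 0.037), and with voom on recovered reads (0.044). Of all genes tested, 23.0% lay higher in the PGAM5 knockdown with no overlap and 20.5% lower. Srebf2 stood above Srebf1 in every library, by a ratio of 1.58 to 1.86.

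The INSIG genes and Scap did not pass. Insig1, which is itself an SREBP target and closes the feedback loop, measured 9.37, 9.27 and 8.37 FPKM against 9.21, 10.2 and 9.71 (log2 difference -0.10, SE 0.057, limma adjusted p = 0.24), and the groups overlapped. Insig2, the second retention protein, measured 11.4, 7.99 and 10.5 FPKM in the PGAM5 knockdown, a wider spread than the 9.51, 9.20 and 9.48 in the DRP1 knockdown. With PGAM5 knockdown library 2 left out it stood higher in that knockdown (difference 0.20, limma adjusted p = 0.042), against 0.065 and 0.70 with all libraries. Scap measured 9.02 ± 0.27 against 8.78 ± 0.22 FPKM (n = 3 each), and Stard4, a small carrier that moves cholesterol between membranes, 1.71 ± 0.16 against 1.61 ± 0.16.

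**Figure D3:**
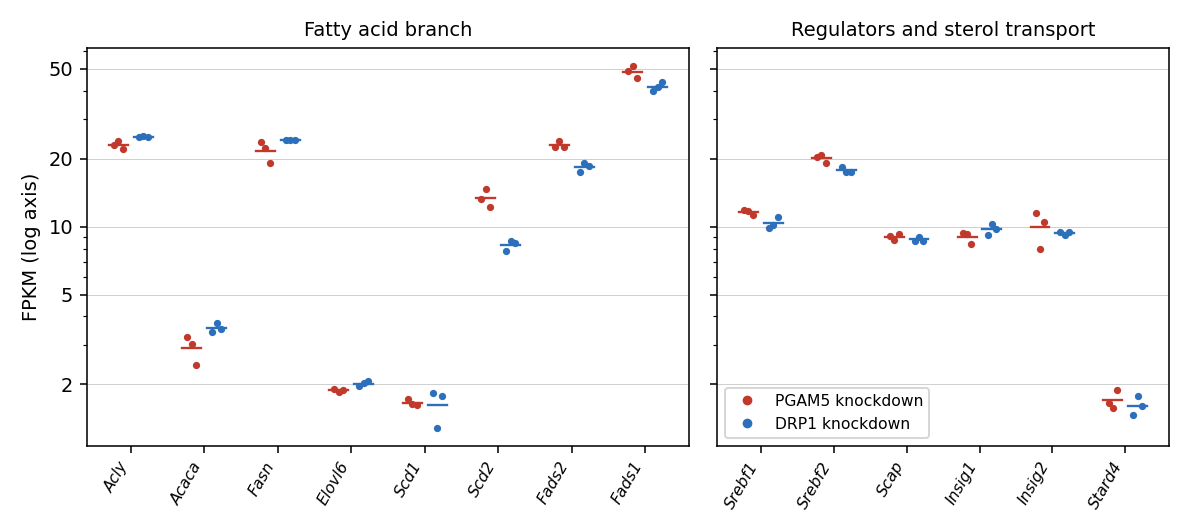
FPKM of each library (points, log axis) and group means (bars) for the fatty acid branch and for the regulators and sterol transport gene, PGAM5 knockdown in red and DRP1 knockdown in blue. Scd2, Fads2 and Fads1 are higher in all 3 PGAM5 knockdown libraries, Acly, Acaca, Fasn and Elovl6 lower, and most regulators overlap.

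Promoter letters are shown for 5 members, as the place where SREBP and its partner factors are known to bind: Hmgcs1 for its match to the sterol regulatory element, and Srebf2, Msmo1, Idi1 and Fads2 as the members that rose and have a window. RefSeq windows on build GRCm38.p6, from 250 bases before to 50 after the start site, matched 25 of the 32 members. The element TCACNCCAC, searched on both strands, was in the windows of 1 of the 25, Hmgcs1, against 1.39% of the tested genes with a window, and its core CACNCCAC, which lies within the element, in 3 (Hmgcs1, Insig1 and Acat2) against 7.26%. The letters TCACCCCA, chosen after the windows were seen, were in 2 (Hmgcs1 and Srebf2) against 1.68%. The CCAAT box (CCAAT, both strands), read by the factor NF-Y, was in 20 of 25 against 43.0% of tested genes, the GC box GGGCGG in 21 against 70.7%, and the E-box CACGTG in 5 against 12.5%. The CCAAT windows included those of Srebf2, Msmo1 and Idi1, which rose, of Hsd17b7, which fell, and of Mvd, which did not pass. The 250 bases before the start site follow, with TCACNCCAC, TCACCCCA and CCAAT on either strand in capitals.
Hmgcs1, chr13:119690101-119690350, plus strand: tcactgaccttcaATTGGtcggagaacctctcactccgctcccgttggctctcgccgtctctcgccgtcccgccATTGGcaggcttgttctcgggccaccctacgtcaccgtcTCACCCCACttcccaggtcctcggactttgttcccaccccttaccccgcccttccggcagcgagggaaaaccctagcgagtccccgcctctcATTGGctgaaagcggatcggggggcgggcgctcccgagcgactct
Srebf2, chr15:82147019-82147268, plus strand: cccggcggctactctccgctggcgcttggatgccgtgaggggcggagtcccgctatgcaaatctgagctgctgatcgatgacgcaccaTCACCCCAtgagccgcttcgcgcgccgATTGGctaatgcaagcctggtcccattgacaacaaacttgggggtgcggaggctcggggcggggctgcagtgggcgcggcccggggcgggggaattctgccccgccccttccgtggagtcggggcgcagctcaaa
Msmo1, chr8:64733579-64733828, minus strand: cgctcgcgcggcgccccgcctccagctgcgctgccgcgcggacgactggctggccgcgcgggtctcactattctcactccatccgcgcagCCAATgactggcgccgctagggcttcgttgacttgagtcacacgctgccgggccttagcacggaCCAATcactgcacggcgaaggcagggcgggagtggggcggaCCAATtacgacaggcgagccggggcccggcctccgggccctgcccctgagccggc
Idi1, chr13:8885356-8885605, plus strand: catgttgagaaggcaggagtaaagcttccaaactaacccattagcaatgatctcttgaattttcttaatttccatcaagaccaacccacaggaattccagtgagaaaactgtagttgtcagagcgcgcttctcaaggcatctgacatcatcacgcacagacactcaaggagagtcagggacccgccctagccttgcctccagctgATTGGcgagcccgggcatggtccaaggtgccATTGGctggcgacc
Fads2, chr19:10101504-10101753, minus strand: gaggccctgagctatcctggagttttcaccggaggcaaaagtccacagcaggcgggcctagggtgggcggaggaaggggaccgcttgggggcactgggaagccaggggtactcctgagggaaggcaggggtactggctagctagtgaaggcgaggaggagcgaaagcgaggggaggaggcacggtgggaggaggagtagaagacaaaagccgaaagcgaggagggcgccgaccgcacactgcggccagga
The printed bases of Hmgcs1 hold 1 element and 3 CCAAT boxes, those of Srebf2 1 TCACCCCA and 1 CCAAT box, those of Msmo1 3 and those of Idi1 2 CCAAT boxes, and those of Fads2 none of these letters. These matches describe the letters and do not show binding. A missing match does not show that a gene lacks an element, since only the stated letters within these windows were searched.

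In the mevalonate part of the sterol branch, Idi1 was the gene that rose. The branch starts with Acat2, the cytosolic thiolase that joins acetyl-CoA units, and Hmgcs1, the synthase of HMG-CoA. Acat2 measured 2.34 ± 0.30 against 2.18 ± 0.63 FPKM and Hmgcs1 5.09 ± 0.20 against 5.19 ± 0.51 (SD, n = 3 each), and neither passed. The level of Acat2 is uncertain, since 65.6% of its longest transcript has a match of at least 97% identity in other genes. The kinase genes Mvk (3.92 ± 0.14 against 3.29 ± 0.32 FPKM, limma adjusted p = 0.065) and Pmvk (4.16 ± 0.67 against 3.99 ± 0.26) did not pass, and Mvk did so without DRP1 knockdown library 1 (0.037). Mvd, the decarboxylase that yields isopentenyl diphosphate, was the second most abundant gene of the branch, with 13.1, 13.5 and 13.3 against 13.8, 12.9 and 14.03 FPKM (log2 difference -0.026, SE 0.042). The groups of Mvd overlapped.

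Idi1 (ENSMUSG00000058258, chromosome 13, 8885501 to 8892451, plus strand), the isomerase of the isoprene unit, measured 3.49, 3.15 and 3.41 FPKM with PGAM5 knocked down and 2.98, 2.44 and 2.52 in the DRP1 knockdown. Every PGAM5 knockdown library lay above every DRP1 knockdown library, and the mean was 1.27-fold higher (log2 difference 0.26, SE 0.074, limma adjusted p = 0.041). This call was lost without any 1 of the PGAM5 knockdown libraries 1, 2 and 3, without DRP1 knockdown library 2 or 3 and without the expression filter, in a range of 0.025 to 0.13. Its level is uncertain too, with 33.3% of its longest transcript matched by other genes. Fdps, the synthase of farnesyl diphosphate, was listed at only 0.015 to 0.18 FPKM (1 to 14 reads), although genes on both sides of it in the pathway were well detected. Genes that overlap it on the same strand, Gm43738 and Gm22935, cover 26.7% of its exonic bases, and a read that 2 genes share can be lost from both. The part of this in the low level was not tested.

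Among the genes from squalene synthase to the lanosterol demethylase no tested member passed. Fdft1, squalene synthase, measured 3.15 ± 0.13 against 3.11 ± 0.098 FPKM. Other genes match 54.7% of its longest transcript, and Ctsb on the opposite strand overlaps 18.3% of its exonic bases; the strand setting of the counts is not given, so such reads cannot be told apart. Sqle, the squalene epoxidase, was the most abundant gene of the branch, with 15.1, 16.4 and 15.9 FPKM against 15.5, 15.8 and 15.8. The groups overlapped (log2 difference 0.0074, SE 0.039, limma adjusted p = 0.91). Lss, which closes the ring to lanosterol, stood at 3.36, 3.45 and 3.29 FPKM against 3.06, 3.01 and 3.04, without overlap, and did not pass (0.11, SE 0.050, limma adjusted p = 0.15). Cyp51, the lanosterol demethylase, measured 6.12 ± 0.72 against 5.64 ± 0.71, and the sterol reductase gene Tm7sf2, below the filter, 0.73 ± 0.038 against 0.73 ± 0.12.

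The 3 genes whose products together strip methyl groups from the sterol ring differed among themselves. Msmo1 (ENSMUSG00000031604, chromosome 8, 64718139 to 64733792, minus strand), the methylsterol monooxygenase that opens this step, measured 10.6, 10.2 and 11.1 FPKM with PGAM5 knocked down and 8.25, 8.41 and 8.38 in the DRP1 knockdown. The groups lay well apart, and the mean was 1.27-fold higher (log2 difference 0.31, SE 0.042, limma adjusted p = 0.0022). It was called under all 12 alternatives (limma adjusted p = 0.00017 to 0.013). Hsd17b7 (ENSMUSG00000026675, chromosome 1, 169949535 to 169969241, minus strand), the reductase that ends the step, measured 2.48, 2.47 and 2.56 FPKM against 3.31, 2.99 and 3.23. The groups did not overlap, and the mean was 1.27-fold lower (-0.25, SE 0.057, limma adjusted p = 0.017). That call was lost without PGAM5 knockdown library 2, without DRP1 knockdown library 1 or 3 and without the expression filter, in a range of 0.0077 to 0.065. Nsdhl, the dehydrogenase between them, stood at 4.46, 4.51 and 3.83 FPKM against 5.16, 4.66 and 4.81 and did not pass (-0.16, SE 0.068, limma adjusted p = 0.13).

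In the last steps to cholesterol no member passed. Ebp, the sterol isomerase, measured 6.90 ± 0.61 against 7.86 ± 0.82 FPKM, and Sc5d, a sterol desaturase, 4.46 ± 0.066 against 4.48 ± 0.37 (SD, n = 3 each). Dhcr7, which reduces the last precursor to cholesterol, measured 2.03, 2.44 and 2.48 FPKM against 2.87, 2.91 and 2.84, with no overlap (log2 difference -0.23, SE 0.071, limma adjusted p = 0.055). It passed with voom (0.020), without the variance trend (0.038) and without PGAM5 knockdown library 3 (0.0499). Summed over its 18 members, the branch stood at 92.5 ± 2.0 FPKM with PGAM5 knocked down and 90.8 ± 0.77 in the DRP1 knockdown. In 4 of the 16 tested sterol genes the PGAM5 knockdown lay higher without overlap and in 3 lower, beside 23.0% and 20.5% of all genes tested.

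**Figure D4:**
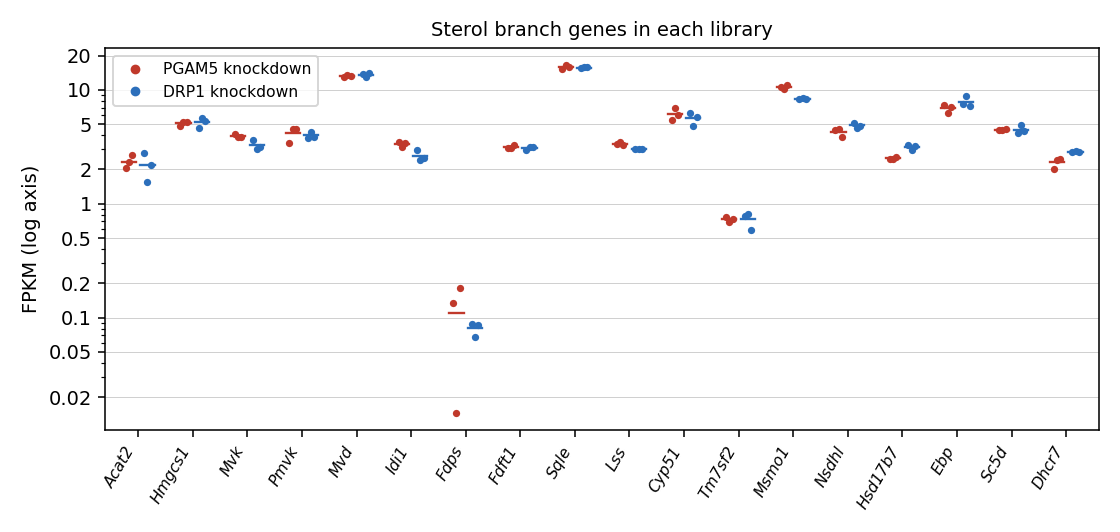
FPKM of each library (points, log axis) and group means (bars) for the 18 sterol branch genes in approximate pathway order, PGAM5 knockdown in red and DRP1 knockdown in blue. Sqle and Mvd are the most abundant, Fdps is lowest at a mean of 0.095 FPKM, Msmo1 is higher with PGAM5 knocked down and Hsd17b7 lower.

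In the fatty acid branch 3 of the 4 genes that introduce double bonds rose and Scd1 did not pass. None of the 4 genes that make and lengthen saturated chains passed. This split of the branch was not set beforehand. Over all 8 members, 37.5% were called higher, beside 13.8% of all genes tested. That share is these 3 genes, and the members were chosen with earlier results of these data known, so it is not independent support. Scd2 (ENSMUSG00000025203, chromosome 19, 44293674 to 44306864, plus strand), a stearoyl-CoA desaturase that makes monounsaturated fatty acids, measured 13.3, 14.6 and 12.2 FPKM with PGAM5 knocked down and 7.81, 8.61 and 8.49 in the DRP1 knockdown. All 3 libraries of each knockdown lay on their own side, and the mean was 1.61-fold higher (log2 difference 0.63, SE 0.068, limma adjusted p = 0.00075). This was the largest difference among the 30 members tested, and it was called under all 12 alternatives (1.4e-05 to 0.0053). The neighbouring isoform gene Scd1 was lower in level, at 1.66 ± 0.054 against 1.63 ± 0.30 FPKM (n = 3 each), and did not pass (0.025, SE 0.096, limma adjusted p = 0.88). The ratio of Scd2 to Scd1 was 7.53 to 8.96 in the PGAM5 knockdown libraries and 4.28 to 6.69 in the others.

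Fads1 and Fads2, the desaturases that build long polyunsaturated fatty acids, rose too. They lie close together on chromosome 19, Fads2 (ENSMUSG00000024665) at 10062765 to 10101746 on the minus strand and Fads1 (ENSMUSG00000010663) at 10182888 to 10196877 on the plus strand. Fads2 measured 22.5, 24.0 and 22.5 FPKM against 17.5, 19.2 and 18.6, with the groups apart and the mean 1.25-fold higher (log2 difference 0.30, SE 0.046, limma adjusted p = 0.0033). It was called under all 12 alternatives (0.00058 to 0.015). Fads1, the most abundant of the 32 members, measured 48.7, 51.4 and 45.4 FPKM against 39.7, 41.7 and 43.7. The gap between its groups was narrow, and the mean was 1.16-fold higher (log2 difference 0.21, SE 0.054, limma adjusted p = 0.026). The Fads1 call was lost without PGAM5 knockdown library 1 or 2, without DRP1 knockdown library 1 or 2, under quantile normalization and without the expression filter, in a range of 0.0070 to 0.089. It was also lost with the replicate number as a block (0.058). The ratio of Fads1 to Fads2 was 2.02 to 2.17 with PGAM5 knocked down and 2.18 to 2.35 in the DRP1 knockdown.

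The 4 other members lay lower in every PGAM5 knockdown library than in any DRP1 knockdown library, as did 20.5% of all genes tested, and none passed. Acly, which makes cytosolic acetyl-CoA from citrate, measured 23.1, 23.9 and 22.2 FPKM against 24.9, 25.3 and 25.0 (log2 difference -0.12, SE 0.036, limma adjusted p = 0.055). Fasn, the fatty acid synthase, measured 23.8, 22.2 and 19.1 FPKM against 24.3, 24.2 and 24.3 (-0.16, SE 0.072, limma adjusted p = 0.15). Its low value came from PGAM5 knockdown library 3, without which the difference was -0.076. Acaca, the carboxylase of the committed step, measured 3.24, 3.02 and 2.43 FPKM against 3.42, 3.72 and 3.51 (-0.23, SE 0.087, limma adjusted p = 0.096), and a pseudogene matched 64.3% of its longest transcript. Elovl6, which lengthens saturated chains, stood at 1.89 ± 0.035 against 2.01 ± 0.052 (-0.063, SE 0.059). PGAM5 knockdown library 3 was the lowest of its group in 6 of the 8 fatty acid genes, against 34.9% of all genes tested. DRP1 knockdown library 1 was likewise the lowest of its own group in 6 of the 8, against 34.1%. With voom, Acly (limma adjusted p = 0.036) and Acaca (0.018) passed as lower. Acly also passed under quantile normalization (0.047) and without PGAM5 knockdown library 2 (0.047), and Fasn without PGAM5 knockdown library 1 (0.046). Summed over its 8 members, the branch stood at 136 ± 7.9 FPKM with PGAM5 knocked down and 125 ± 3.2 in the DRP1 knockdown. The sums overlapped, with PGAM5 knockdown library 3 at 127.4 and DRP1 knockdown library 3 at 127.5. Fads1 weighs most in these sums, while 4 members had a difference above 0 and 4 below.

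Other genes of these pathways were taken from lists of the enzymes, transporters and processing factors around the members. The lists were chosen with earlier results of these data known. Of 42 genes tested over all these lists, 9 rose and 9 fell. That called share, 42.9%, stood beside 25.4% of all genes tested. By list it was 37.5% for sterol uptake, storage and further enzymes and 25.0% for SREBP processing and sterol control. Sterol uptake, storage and further sterol enzymes gave 0 that rose and 3 that fell of 8 tested, the largest being that of Soat1, which esterifies cholesterol for storage (53.9 ± 0.39 against 69.5 ± 0.78 FPKM, difference -0.36, SE 0.026, limma adjusted p = 0.00013). Npc1 (26.5 ± 1.5 against 31.5 ± 0.82 FPKM) and Npc2 (42.1 ± 2.4 against 49.0 ± 1.2), which export cholesterol from lysosomes, fell too (n = 3 each), Npc2 not without DRP1 knockdown library 1 (limma adjusted p = 0.051). The remaining 5 of that list did not pass. Among 8 genes of SREBP processing and sterol control in the endoplasmic reticulum 1 rose and 1 fell. Erlin2, of a membrane complex that promotes the degradation of HMG-CoA reductase, fell from 8.57 ± 0.27 FPKM in the DRP1 knockdown to 4.50 ± 0.21 with PGAM5 knocked down (difference -0.80, SE 0.048, limma adjusted p = 6.1e-05). Its partner Erlin1 measured 50.8 ± 1.3 against 50.9 ± 0.43 and is named after its values were seen.

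Of 9 isoprenoid genes downstream of farnesyl diphosphate, 2 rose and 1 fell, a called share of 33.3% beside 25.4% of all genes tested. Fnta, the shared subunit of the prenyltransferases, rose (25.9 ± 1.5 against 22.4 ± 0.75 FPKM) while Fntb, its partner in farnesyltransferase, fell (6.17 ± 0.42 against 7.31 ± 0.44), and Nus1, of dolichol synthesis, rose (49.9 ± 1.0 against 46.4 ± 0.41). Each of these 3 calls was lost under several alternatives. That of Fnta was lost when library 1 or 3 of the DRP1 knockdown was left out and without the expression filter, with limma adjusted p up to 0.074. That of Fntb was lost when PGAM5 library 1 or 3 or DRP1 library 1 or 2 was left out (up to 0.13), without the expression filter (0.101) and with the replicate block (0.055). That of Nus1 was lost when PGAM5 library 1 or 2 or any of the 3 DRP1 libraries was left out (up to 0.12), under quantile normalization (0.19), without the variance trend (0.079) and with the replicate block (0.090).

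The supply, elongation and glycerolipid genes around the fatty acid branch changed in both directions. Of 25 written, 17 were tested, 6 rose and 4 fell, a called share of 58.8% beside 25.4% of all genes tested. Me1, malic enzyme, which supplies NADPH for fatty acid synthesis, measured 34.4, 34.4 and 36.6 FPKM against 18.7, 19.2 and 20.5, 1.80-fold higher (log2 difference 0.82, SE 0.045, limma adjusted p = 4.2e-05), and 60.1% of its longest transcript was matched by other genes. Mid1ip1, which activates acetyl-CoA carboxylase, measured 48.1 ± 0.88 against 35.4 ± 0.96 FPKM (0.43, limma adjusted p = 0.00017), with 25.5% of its exonic bases shared with genes on the opposite strand. Dgat2, which makes triglyceride, measured 9.28 ± 0.50 against 6.82 ± 0.36 (0.39, limma adjusted p = 0.0024). All 3 were called under all 12 alternatives. Among members of that list named after their values were seen, the elongase gene Elovl5, which acts on polyunsaturated chains, rose (14.8 ± 0.70 against 12.8 ± 0.22 FPKM, limma adjusted p = 0.016), which did not hold when DRP1 library 1 or 3 was left out (0.054 and 0.063), and Elovl1, which makes very long chains, fell (55.5 ± 1.3 against 68.6 ± 3.1, limma adjusted p = 0.0020). Acss2, which makes acetyl-CoA from acetate and is a known SREBP target, fell (0.81 ± 0.082 against 1.33 ± 0.096 FPKM, limma adjusted p = 0.015), which did not hold when DRP1 library 2 or 3 was left out (0.054 and 0.061) or with the replicate block (0.052). Its mean over all libraries was 1.07 FPKM, and it passed the filter of 1 FPKM only through the DRP1 knockdown. In the PGAM5 knockdown it measured 0.91, 0.77 and 0.76 FPKM. Acss2 is counted among the 4 that fell and in the called share of this list.

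**Figure D5:**
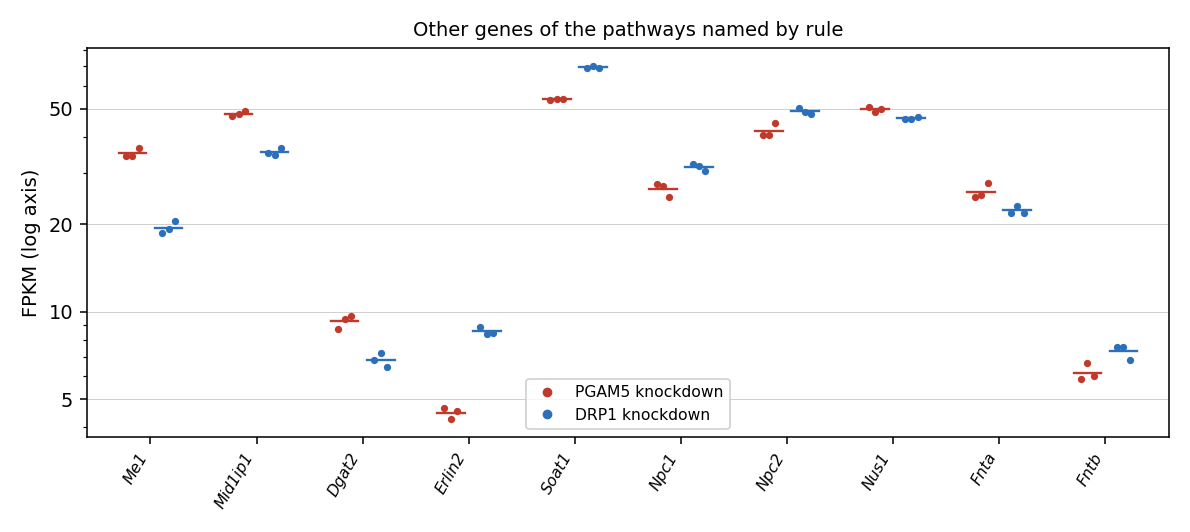
FPKM of each library (points, log axis) and group means (bars) for 10 genes outside the member list that were named by rule, PGAM5 knockdown in red and DRP1 knockdown in blue. Me1, Mid1ip1 and Dgat2 are higher in all PGAM5 knockdown libraries, and Erlin2 and Soat1 lower.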

How the data were processed

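Poly-A RNA gave 6 libraries. The authors deposited 1 FPKM value per gene and library. Per the submitters' processing notes they used HISAT2 2.0.5, featureCounts 1.5.0-p3 and build mm10; for the annotation release, the FPKM formula and the strand setting the sources used here give nothing. Symbols, coordinates and exonic lengths came from GENCODE M21 on the same build, which matched 54409 of 54532 identifiers. FPKM times exonic length came within 0.02 of whole reads for 96.1% of values above 0, which gave the depths. FPKM is relative to each library's total, so a few abundant genes shift all others.

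Genes averaging 1 FPKM or more were tested on log2(FPKM + 1), pseudocount 1, with limma 3.58.1 in R 4.3.3 (variance trend, two-sided, Benjamini-Hochberg over all 10634 genes). Exact permutation of single genes, 3 against 3, cannot give a two-sided p below 0.1. The fit was also run on simulated data with far fewer changed genes than were called here, and no result rests on that run. Copies were searched with blastn 2.17.0 (97% identity, at least 100 bases). Alternatives were a pseudocount of 0.1, no filter, no trend, quantile normalization, voom on recovered reads, the replicate block and leaving out each library.

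The members and lists were chosen with earlier results of these data known. Library values were given for members called, the 2 most abundant per role group, and the SREBP and INSIG genes, and for some other members after their values were seen. Of genes outside the list, the targets and up to 3 called genes per pathway list with the largest differences were named. The values of 1 gene that this rule picks are not reported here.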

Additional observations from a re-analysis of the deposited data

How the results depend on the processing

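Over 12 alternatives for each of the 30 members tested, 312 of 360 results kept their direction and their side of the threshold, 22 lost a call, 12 gained one and 14 changed sign. Msmo1, Scd2 and Fads2 were called under all 12, and Idi1, Hsd17b7, Srebf2 and Fads1 were not. All sign changes were of members that had not passed, and all but that of Sqle under quantile normalization (-0.010) came from leaving out 1 library. Over those 6 fits the differences ran from -0.090 to 0.028 for Hmgcs1, -0.018 to 0.15 for Pmvk, -0.012 to 0.029 for Fdft1, -0.018 to 0.037 for Sqle, -0.037 to 0.053 for Sc5d, -0.063 to 0.22 for Acat2, -0.032 to 0.20 for Insig2 and -0.072 to 0.080 for Scd1.

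Leaving out 1 library gave 980 to 1456 genes that rose and 819 to 1287 that fell over all genes tested, against 1464 and 1240, the fewest that fell (822 and 819) without DRP1 knockdown library 2 or 3. It gave 1 to 3 that rose and 0 to 2 that fell in the sterol branch, 2 to 3 and 0 to 1 in the fatty acid branch, 0 to 1 and 0 to 0 among the regulators, and 5 to 9 and 5 to 8 among the other pathway genes. Without the expression filter, the sterol branch had 1 that rose and 0 that fell and the regulators 0 that rose. Without the variance trend 2 sterol genes fell. With voom 2 sterol genes and 2 fatty acid genes fell and 2 regulators rose. Under quantile normalization 1 fatty acid gene fell, and the median difference of all genes was -0.00065 in place of 0.0094. The cause of these changes was not tested.

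The replicate numbers did not pair the libraries: deviations of same-numbered libraries correlated at 0.021, 0.031 and -0.00034 over genes, and not every library correlated best with its own number. With the replicate block 1161 genes rose and 972 fell, 2 sterol, 2 fatty acid and 1 regulator gene rose and 1 sterol gene fell. Among members the block ended the call of Fads1 (adjusted p = 0.058, limma) and of no other, and among the other named genes those of Fntb, Nus1 and Acss2 (0.055, 0.090 and 0.052). Few reads, 1 to 14 per library for Fdps and 50 to 63 for Tm7sf2, limit what can be said of these genes.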
